A study of Drosophila melanogaster with 2 samples.

Results

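The regions described here were among the strongest in one of 2 libraries of Crc-eGFP chromatin immunoprecipitation with sequencing (ChIP-seq) and not in the other. From the dm6 candidate list of each replicate the regions with the highest signal were taken, as many as the authors' final list holds. A region was kept when no summit of the other replicate's strongest regions lay within 250 bp of its own summit. The rule left 674 regions strong in replicate 1 only and 668 strong in replicate 2 only, 1342 of the 60000 candidates in all. The other strongest regions, 1746 of replicate 1 and 1752 of replicate 2, were shared. Both libraries came from whole *Drosophila melanogaster* embryos of the crc-MiMIC-GFP strain, males and females pooled, collected between 0 and 24 h after laying, as 2 biological replicates of 1 group. In this strain an exon for enhanced green fluorescent protein (eGFP) sits in an intron of crc, so that the gene makes a Crc-eGFP fusion, which an antibody against GFP pulled down from chromatin sonicated to 200 to 800 bp. No untagged embryos were analysed here, and each library mixes all embryonic ages and cell types, so no cell type can be assigned to a region. The sources used here do not state the read depth of the libraries.

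Crc (cryptocephal) is the fly counterpart of mammalian ATF4, a basic leucine zipper transcription factor. When the translation factor eIF2 is phosphorylated under amino acid shortage or unfolded proteins in the endoplasmic reticulum, general translation drops while the ATF4 message is translated more, and ATF4 then switches on genes of amino acid supply, redox balance and protein folding. In the fly, Crc is also needed for moulting and metamorphosis. ATF4 dimers with C/EBP proteins recognise a composite element, the CARE.

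The DNA around the summits of 9 of the regions is shown first, as the summit base with 100 bases to each side on the + strand of dm6, read from the RefSeq copy of Release 6. The first 3 are among the 15 strongest members of replicate 1, with windows clear of UTRs. The next pair are GC-rich members of replicate 1 outside promoters with no counterpart in the other list, the strongest and the richest in GC, chosen after their values were seen. The last 4 are the 4 strongest members of replicate 2, at promoters and between genes. The windows at Pax and CG32573 reach past the regions themselves, which are narrower than the window. Capitals mark the elements searched on both strands, of which the GAGA repeat (GAGAGA) and the TATA box (TATAAA) occur here.
red, chr3R:14288730-14288930: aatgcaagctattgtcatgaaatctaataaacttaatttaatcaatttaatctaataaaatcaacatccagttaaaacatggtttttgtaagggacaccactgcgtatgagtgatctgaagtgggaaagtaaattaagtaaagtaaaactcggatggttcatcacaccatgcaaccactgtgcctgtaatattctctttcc
Sodh2, chr3R:10876020-10876220: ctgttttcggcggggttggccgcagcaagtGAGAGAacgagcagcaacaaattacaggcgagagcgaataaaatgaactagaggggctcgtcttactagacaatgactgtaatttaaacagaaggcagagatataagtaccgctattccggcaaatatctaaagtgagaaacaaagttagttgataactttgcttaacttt
cv-c, chr3R:14473685-14473885: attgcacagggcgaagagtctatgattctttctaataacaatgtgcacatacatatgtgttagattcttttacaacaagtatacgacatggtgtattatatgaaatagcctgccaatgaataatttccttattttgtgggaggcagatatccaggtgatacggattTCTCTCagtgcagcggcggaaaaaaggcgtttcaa
tara, chr3R:16240817-16241017: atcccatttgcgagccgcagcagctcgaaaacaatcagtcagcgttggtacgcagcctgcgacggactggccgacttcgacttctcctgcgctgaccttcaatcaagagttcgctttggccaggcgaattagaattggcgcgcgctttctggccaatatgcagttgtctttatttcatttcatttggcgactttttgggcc
Ten-m, chr3L:22406986-22407186: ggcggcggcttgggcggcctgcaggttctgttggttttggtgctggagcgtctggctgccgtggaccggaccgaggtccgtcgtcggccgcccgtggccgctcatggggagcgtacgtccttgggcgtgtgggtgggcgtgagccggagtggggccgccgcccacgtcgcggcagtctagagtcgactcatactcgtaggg
Pax, chr2L:19416659-19416859: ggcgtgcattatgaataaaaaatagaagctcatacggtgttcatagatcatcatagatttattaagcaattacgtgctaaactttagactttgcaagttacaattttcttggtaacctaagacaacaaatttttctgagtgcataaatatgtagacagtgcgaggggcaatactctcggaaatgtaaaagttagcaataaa
Ldh, chr3L:6262753-6262953: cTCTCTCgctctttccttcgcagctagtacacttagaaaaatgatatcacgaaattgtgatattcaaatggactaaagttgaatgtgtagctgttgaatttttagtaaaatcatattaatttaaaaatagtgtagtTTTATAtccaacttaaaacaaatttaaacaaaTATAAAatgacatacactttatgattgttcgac
CG32573, chrX:16650517-16650717: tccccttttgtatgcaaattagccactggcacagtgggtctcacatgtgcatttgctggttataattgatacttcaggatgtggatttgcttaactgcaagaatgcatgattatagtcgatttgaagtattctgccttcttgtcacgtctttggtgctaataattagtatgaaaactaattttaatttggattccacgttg
ds, chr2L:715442-715642: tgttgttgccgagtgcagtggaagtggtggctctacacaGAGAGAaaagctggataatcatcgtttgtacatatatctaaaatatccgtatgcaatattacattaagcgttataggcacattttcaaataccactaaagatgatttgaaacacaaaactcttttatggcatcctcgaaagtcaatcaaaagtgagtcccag

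GC made up 33.3% of the window at red, 41.8% at Sodh2 and 38.3% at cv-c. It reached 52.2% in the intron of tara and 70.6% in the coding exon of Ten-m. The windows strong in replicate 2 held 33.3% at Pax, 27.4% at Ldh, and 37.3% both near CG32573 and near ds. A GAGA repeat stood in the Sodh2, cv-c, Ldh and ds windows, and TATA boxes stood in that of Ldh. A match is only a description of the letters in the window.

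The members were chosen by signal, the authors' own score for each region, and by rank in both lists, so the values in this paragraph describe the choice and carry no test. Signals ran from 27.8 to 63.7 with a median of 31.9 among the replicate 1-only regions, against 27.8 to 571.3 with a median of 47.3 among the shared regions of the same list. Among the replicate 2-only regions they ran from 38.6 to 103.9 with a median of 44.9, against 38.7 to 765.1 with a median of 68.9 among the shared regions of that list. The scale of the score differs between the libraries, so regions are compared between them by rank. None of the 500 strongest regions of replicate 1 and 3 of the 500 strongest of replicate 2 (Pax, CG32573 and Ldh) were one-sided. Among the next 500 ranks the share was 7.2% in replicate 1 and 7.6% in replicate 2, and among the last 420 it was 65.5% and 63.1%. One-sided regions thus sat mostly near the end of each list. The −log10 q value in the deposited lists ran from 1.47 to 3.24 among both the replicate 1-only and the shared regions of replicate 1. The medians were 1.88 and 2.83. In replicate 2 it was 3.82 at every one-sided and every shared region, which was also the highest value among the candidates not taken.

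**Figure D1:**
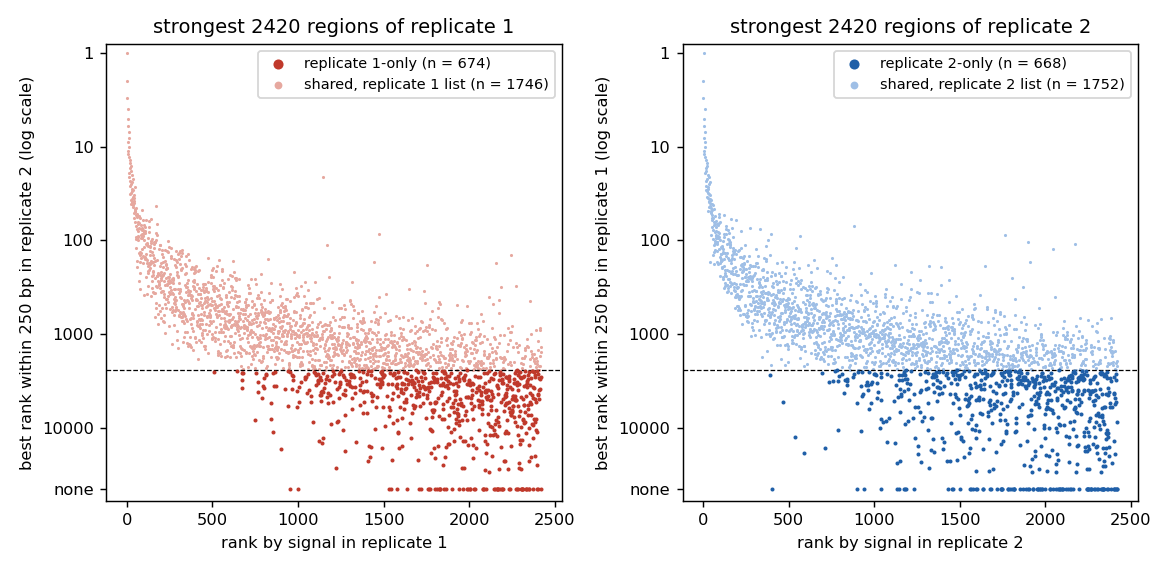
Rank by signal in a region's own replicate (x axis) against the best rank of any candidate within 250 bp in the other replicate (y axis, log scale, rank 1 at the top; "none" marks regions without such a candidate). Dark points are the 674 replicate 1-only regions (left) and the 668 replicate 2-only regions (right), pale points the shared regions, and the dashed line is the last rank taken; the dark points lie below the line by the rule and thicken toward the weak end of the x axis.

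Most one-sided regions had some candidate nearby in the other list. Those lists were deposited as peaks and background together. Among candidates not taken, the median −log10 q was 0.107 in replicate 1 and 0.326 in replicate 2. A counterpart of late rank may thus be background. Of the 674 replicate 1-only regions, 614 had a candidate of any rank within 250 bp in replicate 2, with a median rank of 4192.5 and a last rank of 29369. Of the 668 replicate 2-only regions, 574 had one in replicate 1, with a median rank of 4320.5 and a last rank of 29789. No candidate within that distance was listed for 60 regions (8.90%, Wilson 95% interval 6.98 to 11.3) and 94 regions (14.1%, 11.6 to 16.9). This and later intervals cover counting error only. Both candidate lists held 30000 regions, so a weaker counterpart would not be in them. At the limits of the rule, the last region taken in replicate 1 had a signal of 27.8394 (Doa) and the first one left out 27.8391 (CG6610), while in replicate 2 these were 38.6242 (Kank) and 38.6188 (bmm). The nearest excluded neighbour lay at 243 bp (Fmo-2) in replicate 1 and 249 bp (CG7560) in replicate 2, and the nearest members stood 254 bp (Kcmf1) and 253 bp (trbl) from a strong summit of the other list. The best rank in the other list was at most 500 places past the last one taken for 120 replicate 1-only and 117 replicate 2-only regions. The authors' optimal list is the final list for both replicates. It held 252 of the replicate 1-only regions (37.4%) and 388 of the replicate 2-only regions (58.1%). Of the shared regions of each list it held 99.6%. The optimal list was made from the same reads, so these shares describe the choice and carry no test. The same holds for the counts of counterparts in this paragraph.

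The strongest replicate 1-only region lay 43 bp from the start of RpL35A (FBgn0037328), which encodes a protein of the large ribosomal subunit, at 3R:5466954-5467333. Its signal was 63.7 at rank 508 in replicate 1 and 37.7 at rank 2542 in replicate 2. The promoter region of red, an eye pigment gene, had 57.0 at rank 642 and 38.1 at rank 2487. Next came a region at 3R:11392820-11393199 in the 3' UTR of pros, which encodes a homeodomain factor of neural fate, with 55.7 at rank 671 and 37.1 at rank 2608. In replicate 2 these 3 regions lay within 200 ranks of the last one taken. These were followed by the promoters of eEF1alpha1, which encodes the factor that delivers aminoacyl-tRNA to the ribosome (55.7 at rank 672, against 30.2 at rank 3721), and CG16787 (55.7 at rank 673, against 33.8 at rank 3068). TP53INP, an autophagy gene, had 55.1 at rank 680, against 37.4 at rank 2567. The region at ttv, which encodes an enzyme that builds heparan sulfate chains, differed most in rank among the first 15, with 52.1 at rank 748 in replicate 1 and 18.9 at rank 8317 in replicate 2.

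The remaining promoters among those 15 were those of Sodh2 (a sorbitol dehydrogenase), ThrRS (threonyl-tRNA synthetase), Fdh (formaldehyde dehydrogenase), RnrS (small subunit of ribonucleotide reductase), CG42613 and Rab5 (a GTPase of early endosomes). Their signals in replicate 1 ran from 49.7 to 51.6 and their ranks from 755 to 813, with ranks from 2568 at Sodh2 to 3722 at CG42613 in replicate 2. Both remaining members were intronic, 2994 bp from the start of CG12991 and 7928 bp from that of cv-c. The region in cv-c had 50.2 at rank 790, against 26.0 at rank 4782. All 15 were in the authors' optimal list.

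The strongest replicate 2-only region was a narrow one at 2L:19416682-19416790, 289 bp from a start of Pax (FBgn0041789), the gene of the focal adhesion adaptor paxillin. It had a signal of 103.9 at rank 393 in replicate 2 and 26.3 at rank 2724 in replicate 1. The next, also narrow, lay between genes 759 bp from the start of CG32573 at X:16650552-16650684, with 103.1 at rank 402 and no candidate within 250 bp in replicate 1. These were the 2 replicate 2-only regions shorter than the usual 404 bp, while every replicate 1-only region was 380 bp wide. Ldh, the gene of lactate dehydrogenase, followed with a promoter summit at 96.8 and rank 465, against 19.8 at rank 5233 in replicate 1. Between genes 559 bp from the start of ds, which encodes the atypical cadherin Dachsous, a region had 90.5 at rank 538, against 14.7 at rank 12372. At ogre, an innexin gene of gap junctions, the promoter had 86.5 at rank 591, against 12.7 at rank 18586. From CG32573 to ogre, these 4 regions had a later rank in the other list, or none, than the first 5 replicate 1-only regions. Pax, at rank 2724, did not, and ttv among the replicate 1-only regions had a later rank in the other list than Ldh. These ranks were used by the rule, and the 4 regions were grouped after their values were seen.

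Of the other 10 strong replicate 2-only members, 4 were intronic. They lay in Tsp96F, a tetraspanin gene (79.7 at rank 697, against 26.7 at rank 2618), in pyd, which encodes a ZO-1 protein of cell junctions (78.7 at rank 711, against 13.2 at rank 16590), in Src64B, a Src kinase gene (75.9 at rank 761, against 24.5 at rank 3186), and in Pvf3, which encodes a ligand of the PDGF/VEGF type (73.1 at rank 812, against 26.5 at rank 2654). The promoters were those of ms(3)K81, which protects paternal telomeres, CG6415, RhoGAP68F and CG42394, with signals from 74.0 to 77.4 and ranks in replicate 1 from 2427 to 3242. The last pair, at 2R:20074981-20075384 and 3R:21848924-21849327, were intergenic. All 15 were in the optimal list.

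Location was not used by the rule and was tested with two-sided Fisher's exact tests, adjusted by the Benjamini-Hochberg method over 7 location classes and 3 comparisons, on regions as units. The shorter and longer lists named below take fewer and more of the ranked regions, and the weaker part of the list holds the taken regions past the shorter list. A p-value here describes regions within this pair of libraries and does not measure variation between embryo collections. Promoter summits, within 500 bp of the start of a protein-coding gene, were fewer in both one-sided sets. They made up 318 of the 674 replicate 1-only regions (47.2%, 43.4 to 51.0) and 934 of the 1746 shared regions of that list (53.5%, 51.1 to 55.8; adjusted exact p = 0.0205). In replicate 2 they made up 281 of 668 one-sided regions (42.1%, 38.4 to 45.8) and 935 of 1752 shared regions (53.4%, 51.0 to 55.7; adjusted exact p = 1.46e-05). Among the candidates not taken, promoter summits made up 19.3% in replicate 1 and 25.6% in replicate 2. Between the replicate 1-only and replicate 2-only sets the difference of 5.12 percentage points did not pass (adjusted exact p = 0.163). It was 12.9 points with shorter lists (adjusted exact p = 0.0294) and turned to -9.82 points with longer lists (adjusted exact p = 4.68e-09). The lower share in replicate 1 lost its call in 7 of 10 alternatives and turned to 0.492 points higher with shorter lists, and in the weaker part of the list the difference was -6.53 points (adjusted exact p = 0.104). For replicate 2 the difference in those ranks was -9.62 points (adjusted exact p = 0.00588), and the call was lost when only summits within 100 bp counted as shared (-5.55 points, adjusted exact p = 0.0695) or when only regions absent from the whole other list were taken.

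Most promoter summits were upstream of the nearest start in each set, in 74.2% of the replicate 1-only and 76.9% of the replicate 2-only promoter regions. The share was 82.8% among shared promoter regions of replicate 1 and 82.2% among those of replicate 2, and the difference was not tested. The median distance from summit to start was 98.5 bp in the replicate 1-only set and 121 bp in the replicate 2-only set, against 121.5 bp and 127 bp in the shared sets of the same lists.

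Intronic summits were more frequent in the replicate 2-only set. Of its 668 regions, 278 (41.6%, 37.9 to 45.4) had an intronic summit, against 578 of 1752 shared regions (33.0%, 30.8 to 35.2; adjusted exact p = 0.000662 by Fisher's exact test). The replicate 1-only regions had 231 of 674 (34.3%, 30.8 to 37.9), and their shared counterparts 582 of 1746 (33.3%, 31.2 to 35.6; adjusted exact p = 0.818). Among the candidates not taken, intronic summits made up 39.5% in replicate 1 and 40.8% in replicate 2. The part of these library-wide shares in the one-sided sets was not tested. Between the replicate 1-only and the replicate 2-only set the difference in intronic summits was -7.34 percentage points (adjusted exact p = 0.0205). This last call was lost in 5 of 9 alternatives, and the replicate 2-only call in 4 of 10, with the difference still higher in each. The genes with most intronic members in replicate 2 were shn, a zinc finger gene of Dpp signalling, with 5 (and 4 shared ones), and Raf, Pvf3, px, bun, Mnt, Eip63E and CG1677 with 3 each. In replicate 1 they were wts, which encodes the Hippo pathway kinase Warts, with 4 (and 0 shared ones), and jing, SNF4Agamma and CG5953 with 3 each. These genes were counted after their values were seen.

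Coding exons held few regions, but in unequal numbers. There were 13 summits in coding exons among the 674 replicate 1-only regions (1.93%, 1.13 to 3.27) and 4 among the 1746 shared regions of that list (0.23%, 0.089 to 0.59; adjusted exact p = 0.000431 by Fisher's exact test). The replicate 2-only set had 0 of 668, an upper Wilson limit of 0.572%, and differed from the replicate 1-only set (adjusted exact p = 0.00121). Both calls were lost with shorter lists. The strongest of the 13 was in klar at 3L:506003-506382, with 34.98 at rank 1598 in replicate 1 and 35.15 at rank 2862 in replicate 2. It was followed by Atg3, which encodes an enzyme of autophagosome formation (32.8 at rank 1787, against 21.4 at rank 6708), and CG43897 (32.7 at rank 1797, against 13.1 at rank 16537). No replicate 2 candidate was listed within 250 bp of 6 of the 13. All 13 windows had a GC content of 45% or more, from 45.8% to 70.6%. Coding exon windows outside the set are not given for comparison, so this GC content is not shown to be particular to it. Coding exons made up 13.7% of the weaker candidates of replicate 1, those not taken, and 8.64% of those of replicate 2. Whether these library-wide shares set the difference between the strong sets was not tested. Intergenic summits, 12.02% of the replicate 1-only and 12.7% of the replicate 2-only regions, against 10.3% and 10.4% of the shared ones, did not pass in any of the 3 comparisons.

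**Figure D2:**
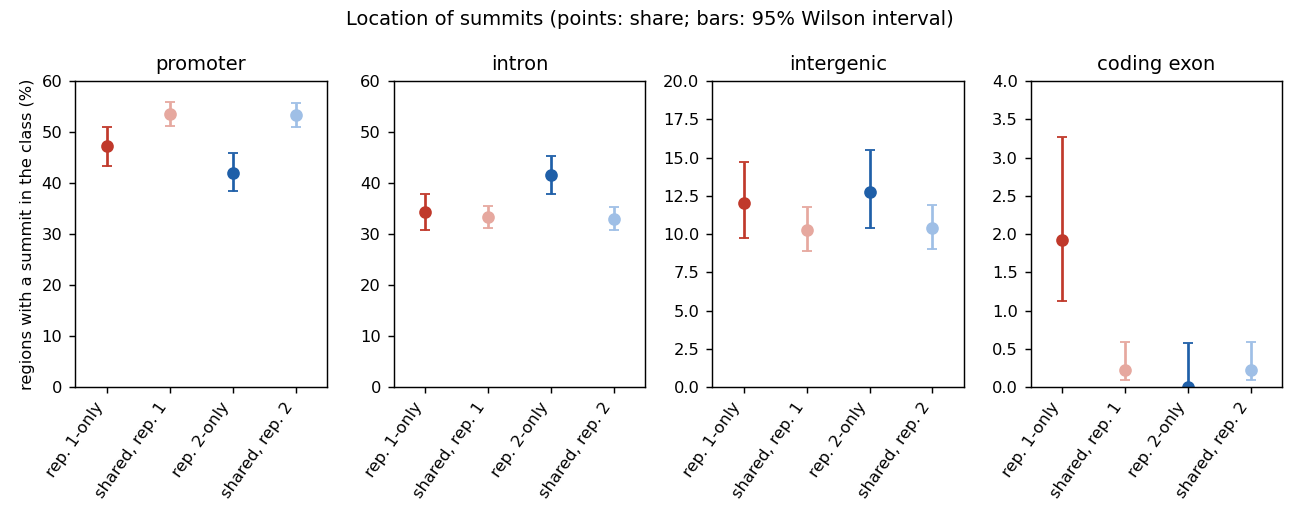
Share of regions (y axis, percent) whose summit lay at a promoter, in an intron, between genes or in a coding exon, for the replicate 1-only regions, shared regions of replicate 1, replicate 2-only regions and shared regions of replicate 2; points are shares and bars 95% Wilson intervals for counting error. Promoter shares of the one-sided sets (47.2% and 42.1%) lie under those of the shared sets (53.5% and 53.4%), the intronic share of the replicate 2-only set (41.6%) lies above the other 3, and the y axes of the panels differ.

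The 2 sets differed in base composition. Of the replicate 1-only windows, 124 of 674 (18.4%, 15.7 to 21.5) had a GC content of 45% or more, against 171 of 1746 shared windows of that list (9.79%, 8.49 to 11.3; adjusted exact p = 6.8e-08 by two-sided Fisher's exact test over the 3 comparisons). Of the replicate 2-only windows, 67 of 668 did (10.03%, 7.98 to 12.5), against 163 of 1752 shared windows (9.30%, 8.03 to 10.8; adjusted exact p = 0.588). The one-sided sets differed from each other by 8.37 percentage points (adjusted exact p = 1.68e-05). The median GC was 38.8% in the replicate 1-only and 35.3% in the replicate 2-only set, against 36.3% and 35.8% in the shared sets of the same lists. With 200 bases to each side of the summit the replicate 1-only difference was 2.80 points and that between the one-sided sets 3.61 points, and neither passed (adjusted exact p = 0.107). In the weaker part of the list the replicate 1-only difference was 9.16 points (adjusted exact p = 1.42e-05).

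The sets were also split by location, a choice made after the data were seen. Outside promoters, 70 of 356 replicate 1-only windows (19.7%, 15.9 to 24.1) were at 45% or more, against 63 of 812 shared ones (7.76%, 6.11 to 9.80; adjusted exact p = 3e-08 by Fisher's exact test). The replicate 2-only windows outside promoters were at 45% or more in 19 of 387 (4.91%, 3.17 to 7.54), against 57 of 817 (6.98%, 5.42 to 8.93; adjusted exact p = 0.204). Leaving out coding exons as well, the replicate 1-only share was 16.6% and the shared one 7.55% (adjusted exact p = 1.51e-05). The 70 windows comprised 34 in introns, 15 between genes, 13 in coding exons, 3 in 5' UTRs, 3 in other exons and 2 in 3' UTRs. At promoters both sets had a higher share than the shared regions. The shares were 17.0% against 11.6% for replicate 1-only windows, and 17.1% against 11.3% for replicate 2-only windows. Each difference passed (adjusted exact p = 0.0232 by Fisher's exact test). At this limit of 45% the one-sided sets did not differ detectably from each other (-0.101 points, adjusted exact p = 1). The median GC at promoters was 38.8% in the replicate 1-only and 35.8% in the replicate 2-only set, against 36.3% and 35.8% in the shared sets. At 40% GC or more the one-sided shares at promoters were 44.0% and 32.0%, a difference that was not tested.

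**Figure D3:**
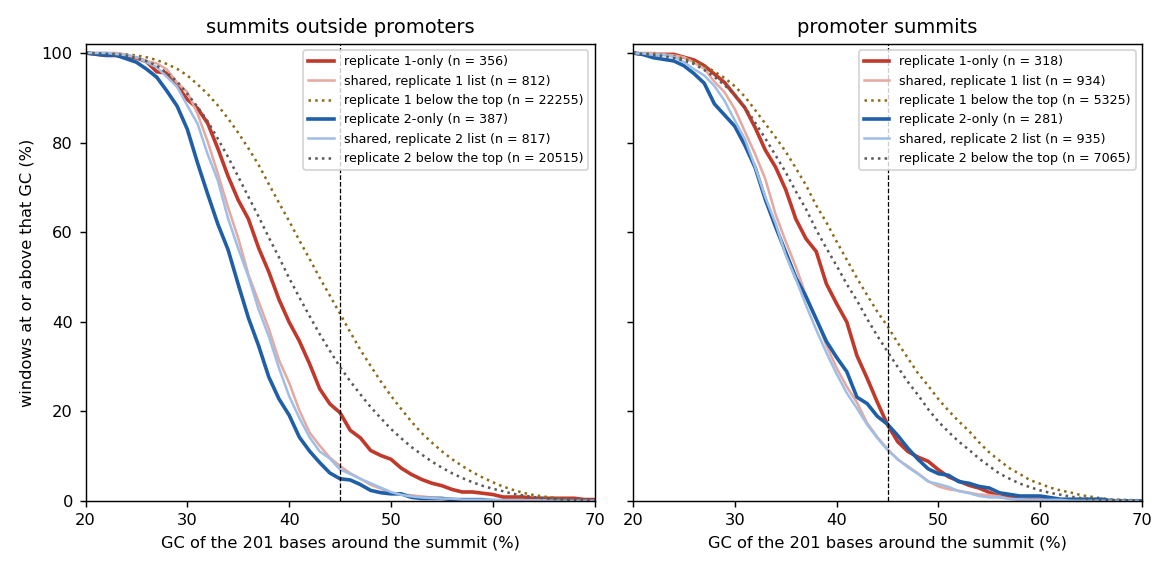
Share of summit windows (y axis, percent) with at least the GC content on the x axis, for summits outside promoters (left) and at promoters (right); solid dark lines are the one-sided sets, solid pale lines the shared sets, dotted lines the weaker candidates not taken, and the dashed line marks 45%. At 45%, outside promoters, the replicate 1-only line (19.7%) lies above and the replicate 2-only line (4.91%) below the shared lines, though the lines cross elsewhere. At promoters the one-sided lines meet at 45% (17.0% and 17.1%) and lie apart at 40% (44.0% and 32.0%).

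The weaker candidates, which include background, also differed in GC content between the libraries. Among those not taken, 41.2% of windows in replicate 1 and 30.8% in replicate 2 were at 45% or more. Over the 2409 optimal peaks with a candidate in both lists, the log2 ratio of replicate 1 to replicate 2 signal, centred on its median, had a median of -0.12 in the 301 windows under 30% GC and 0.16 in the 76 windows of 50% or more. Its Spearman correlation with GC across these peaks was 0.158, a description over peaks that share 2 libraries and unknown depths. These peaks include one-sided members, whose ratios the rule bears on. Among replicate 1-only regions without any counterpart in replicate 2, 28 of 60 windows (46.7%) were at 45% or more, against 15.6% of the 614 with one. Among replicate 2-only regions the shares were 14.9% of 94 and 9.23% of 574. One of the 28 was the intron of tara, which encodes a co-regulator of the trithorax group (44.4 at rank 998), and another the coding exon of Ten-m, a teneurin gene (29.6 at rank 2162), both shown above. The part of library-wide base composition in the one-sided sets was not tested.

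No element within 100 bp of the summit separated the sets by the test. None of 11 elements passed in any of the 3 comparisons (33 two-sided Fisher's exact tests, adjusted together; 6 had an unadjusted p under 0.05, and no other tool was run). The lowest adjusted p, 0.0859, was reached by GAGA repeats, at 7.86% of replicate 1-only and 11.8% of shared windows, and by A-tracts (10 consecutive A), at 7.63% of replicate 2-only and 4.57% of shared windows. Both passed with 200 bp to each side of the summit (adjusted exact p = 0.00261 and 0.0096). Over all candidates, GAGA repeats stood in 8.2% of replicate 1 and 8.57% of replicate 2 windows, and A-tracts in 5.75% and 6.08%. The CARE (TGATGNAAY) stood in 15 replicate 1-only windows (2.23%, 1.35 to 3.64) and 10 replicate 2-only windows (1.497%, 0.815 to 2.73), against 1.03% and 1.14% of the shared windows and 1.51% and 1.52% of all candidates. Motif 1 (GGTCACACT), the site of the factor M1BP, was found in 2.52% and 1.35%, against 1.09% and 1.31% of the shared windows and 0.543% and 0.967% of all candidates. CA repeats (CACACACA) were found in 5.34% and 3.14%, against 3.21% and 2.91% of the shared windows and 4.92% and 4.82% of all candidates.

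The remaining elements were the DRE (TATCGATA), the CRE (TGACGTCA), the AP-1 site (TGANTCA), the Zelda site (CAGGTAG), the E-box (CACGTG) and the TATA box. The DRE stood in 4.15% of replicate 1-only and 2.69% of replicate 2-only windows, against 4.01% and 4.05% of the shared windows and 1.32% and 1.79% of all candidates. TATA boxes stood in 28.3% and 32.3%, against 30.7% and 30.7% of the shared windows and 21.0% and 25.2% of all candidates. AP-1 sites were in 4.01% and 4.64%, E-boxes in 3.12% and 1.497%, Zelda sites in 0.445% and 1.05%, and CREs in 0.297% and 0.449%. Over all candidates of replicate 1 and replicate 2 those shares were 4.09% and 4.57%, 2.53% and 2.45%, 1.16% and 1.07%, and 0.313% and 0.317%.

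Of the 6 chromosome arms, X was less frequent in the replicate 1-only set. It held 95 of 674 regions (14.1%, 11.7 to 16.9), against 343 of 1746 shared regions (19.6%, 17.8 to 21.6; adjusted exact p = 0.0261 by Fisher's exact test over 18 tests). In replicate 2, X held 126 of 668 one-sided regions (18.9%) and 340 of 1752 shared ones (19.4%). The call was lost in 5 of 7 alternatives, with X lower in each, and in the weaker part of the list it had an adjusted exact p = 0.242. X held 14.4% of the weaker candidates in replicate 1 and 16.3% in replicate 2. No other arm passed. A transposable element covered the summit of 5 replicate 1-only regions and of 0 replicate 2-only regions, against 4 and 5 of the shared ones.

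The promoter regions touched 425 of the 13945 protein-coding genes in the replicate 1-only set (3.05%) and 364 in the replicate 2-only set (2.61%), against 1269 with a shared promoter summit (9.1%). These shares are the background for the counts below, which describe lists chosen with results of these data known and carry no test. Both kinds of one-sided summit occurred at 21 genes, among them Kcmf1, with summits 254 bp apart, and InR, the insulin receptor gene, 432 bp apart. Of the genes with a one-sided summit, 30 in replicate 1 and 19 in replicate 2 also had a shared one.

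Cytosolic ribosomal protein genes were the list with most members in the replicate 1-only set. Of 92 genes, paralogs included, 14 (15.2%) had a replicate 1-only promoter summit and 0 a replicate 2-only one, while 48 (52.2%) had a shared one. After RpL35A the strongest were RpL9 (43.1 at rank 1056 in replicate 1, against 36.6 at rank 2676 in replicate 2), RpL35 (40.03 at rank 1234, against 18.8 at rank 8469) and RpL3 (36.6 at rank 1450, against 34.6 at rank 2949). Others were RpS26, RpL36A, RpL7A, RpS30, RpS3A, RpLP2, RpS15 and RpS14a, with ranks from 1507 to 2300 in replicate 1 and from 2627 to 12388 in replicate 2. RpS14a has a near-identical tandem copy, so its region is uncertain. Of the 79 ribosomal protein genes with a promoter candidate in both lists, 63 (79.7%) had the better rank in replicate 1, against 50.6% of all 4852 genes with a candidate in both. The rule fixes the better rank of the 14 members among the 63. Among the 48 with a shared summit, 43 (89.6%) ranked better in replicate 1, against 56.5% of the 1252 genes with one for which ranks were compared. Among the 17 with weaker candidates only, 6 ranked better in replicate 1 and 11 in replicate 2. The median best rank was 808.5 over the 82 genes of the list with a candidate in replicate 1. It was 1966 over the 86 with a candidate in replicate 2. For all protein-coding genes with a candidate the medians were 6943.5 and 7018.

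**Figure D4:**
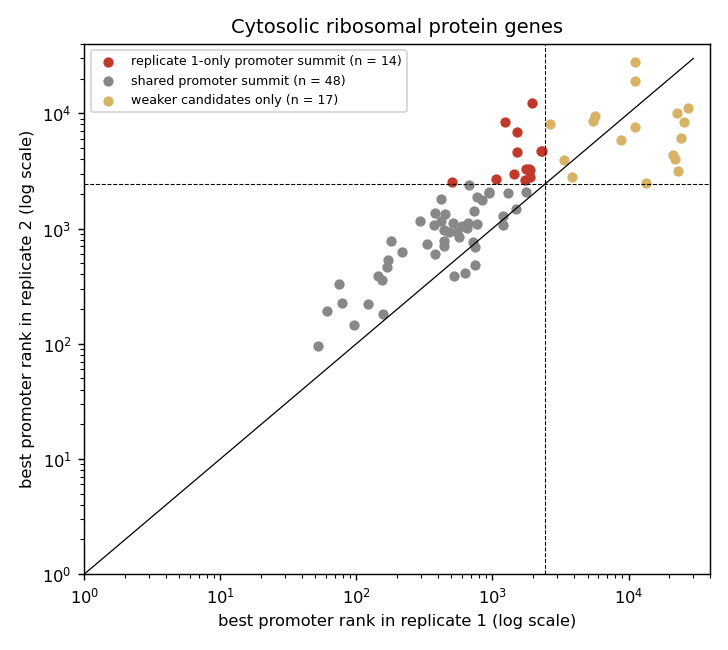
Best rank of a candidate within 500 bp of a start in replicate 1 (x axis, log scale) against that in replicate 2 (y axis, log scale) for the 79 cytosolic ribosomal protein genes with a candidate in both lists; dashed lines mark the last rank taken and the solid diagonal equal ranks. Most points, 63 of 79, lie above the diagonal, which is a better rank in replicate 1, the 14 genes with a replicate 1-only summit among them by the rule, while 11 of the 17 genes with weaker candidates only lie under it.

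Other parts of the translation apparatus were split between the sets. Translation factors had 3 of 53 genes in the replicate 1-only set, namely eEF1alpha1, eRF1, the stop codon reader (48.9 at rank 842, against 24.2 at rank 5384 in replicate 2), and eIF4A, an RNA helicase of initiation (32.0 at rank 1875). They had 4 in the replicate 2-only set, namely eIF2D (52.3 at rank 1462), eIF2beta (52.2 at rank 1474), eIF4A (46.5 at rank 1763) and eIF2A (39.0 at rank 2383). The one-sided summits at eIF4A lay 1042 bp apart. Aminoacyl-tRNA synthetases had ThrRS and AspRS in the replicate 1-only set and AsnRS and AlaRS in the replicate 2-only set, of 35 genes. Mitochondrial ribosomal protein genes had mRpL24 in the replicate 1-only set and mRpS21, mRpL54, mRpL18 and mRpL11 in the replicate 2-only set, of 73. The respiratory chain and ATP synthase had 2 of 80 (ND-SGDH and ND-20, both of complex I) and 0, the vacuolar ATPase 1 of 33 (Vha68-2) and 0, and the proteasome 1 of 48 (Prosalpha3) and 0. A summit counts for every gene with a start within 500 bp, and the ND-SGDH summit counts for RhoGAP68F too. It lay 629 bp from the replicate 2-only summit of RhoGAP68F.

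Among 20 genes of the integrated stress response, the pathway in which Crc acts, 2 had a replicate 1-only and 1 a replicate 2-only summit, while 9 had a shared one. The crc gene itself (FBgn0000370, 2L:21310866-21319527) was in the replicate 1-only set. Its region, 2L:21311018-21311397, lay 342 bp from a start in 5' UTR sequence, with a signal of 40.1 at rank 1224 and a GC content of 49.3%. The best replicate 2 candidate within 250 bp had 9.92 at rank 26768, and the region was not in the optimal list. Outside that distance, replicate 2 candidates 1 bp and 279 bp from a crc start had 15.8 at rank 11648 and 15.8 at rank 11619. An intronic replicate 2 candidate 787 bp from a crc start was stronger, with 19.99 at rank 7520. A further replicate 1 candidate, 299 bp from a start, had 17.6 at rank 7439. Another, in 3' UTR sequence within the gene, had 19.6 at rank 5443. The eGFP exon sits in an intron of the same gene, at a position not given in the labels. The other pair were scyl, which encodes a brake on TOR signalling (30.2 at rank 2082, against 30.4 at rank 3688 in replicate 2), and eIF2beta, which encodes a subunit of eIF2 (52.2 at rank 1474 in replicate 2, against 27.1 at rank 2556 in replicate 1).

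The unfolded protein response list had Edem1, of the disposal of misfolded proteins, in the replicate 1-only set, and Cnx99A (calnexin) and Pdi (protein disulfide isomerase) in the replicate 2-only set, of 18 genes. Of 18 heat shock genes, DnaJ-1 stood in the replicate 1-only and Hsc70-4 in the replicate 2-only set. Of 12 glycolytic genes, PyK (pyruvate kinase, 37.1 at rank 1420, against 11.7 at rank 20334 in replicate 2) was replicate 1-only beside a shared summit, and Ldh and Eno (enolase, 44.2 at rank 1942) were replicate 2-only. Lipid genes had 0 and 1 of 12, and the 1 gene was Hnf4, which encodes a nuclear receptor. InR was the 1 gene of 18 of insulin and TOR signalling in each set, and it had a shared summit too.

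Genes of the actin and tubulin cytoskeleton were the list with the largest share in the replicate 2-only set, 5 of 13 against 1 of 13 in the replicate 1-only set. They included Moe (moesin, 66.0 at rank 963 in replicate 2, against 23.5 at rank 3493 in replicate 1), alphaTub84B (an alpha-tubulin, 44.6 at rank 1907, against 24.2 at rank 3262), chic (profilin, 40.1 at rank 2276, against 24.9 at rank 3044) and zip (non-muscle myosin heavy chain, 39.6 at rank 2323, against 27.3 at rank 2519). The summit windows of alphaTub84B, chic and zip had 46.3% to 48.3% GC, and that of Moe 32.8%. Moe also had a replicate 1-only summit, 3883 bp away, with 31.4 at rank 1942. The list is short, so that each gene shifts its share by several percentage points.

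Lists of developmental genes each had at most 2 genes in a one-sided set, with shares to be read against the 3.05% and 2.61% of all genes. In the replicate 1-only set these were hb, a gap gene (1 of 24 segmentation genes, 4.17%), ush, a GATA cofactor gene (1 of 17 dorsoventral genes, 5.88%), nanos, which represses translation in the germ line (1 of 14, 7.14%), and Syx1A, a syntaxin gene (1 of 14 neuronal genes, 7.14%). They also included loco and pnt (2 of 9 glial genes, 22.2%) and tin and Mef2, which encode mesodermal factors (2 of 17, 11.8%). In the replicate 2-only set they were brat (1 of 13 neural precursor genes, 7.69%), scrt (1 of 14 neuronal genes, 7.14%) and Nrg, the neuroglian gene (1 of 9 glial genes, 11.1%). CycG and CycE (2 of 22 cell cycle genes, 9.09%), phol (1 of 18 Polycomb and trithorax genes, 5.56%) and puc, the phosphatase gene of JNK signalling (1 of 25 signalling regulators, 4%), were replicate 2-only too. Among the 16 insulator and promoter factors, psq (48.5 at rank 855, against 16.1 at rank 11175 in replicate 2) and BEAF-32, which also had a shared summit, were replicate 1-only and M1BP was replicate 2-only. Hox genes (8), ecdysone response genes (17), cuticle proteins (95) and chemoreceptors (179) had 0 in both sets. Replication-dependent histones (111) had no candidate of any rank in either list, so they could not enter a set.

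**Figure D5:**
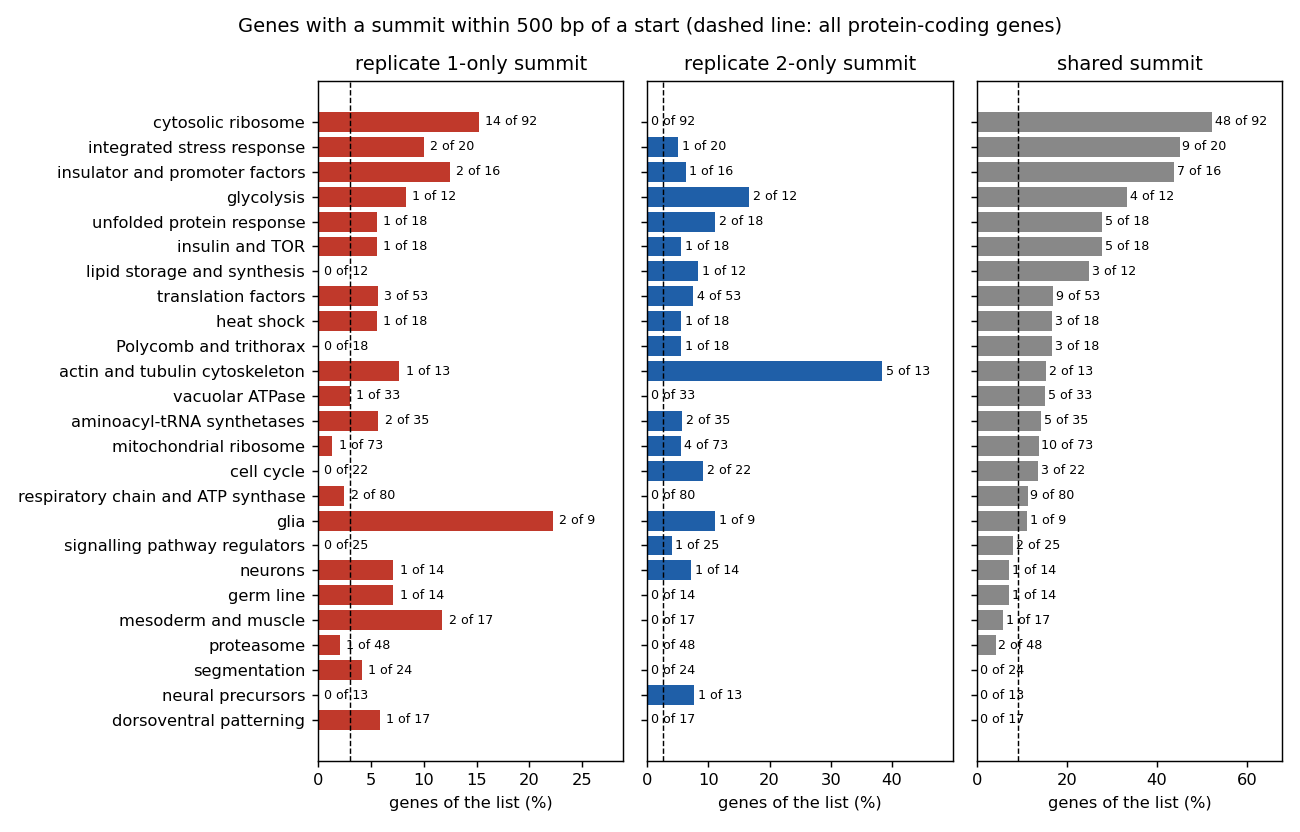
Share of the genes of each list (x axis, percent, with the counts beside the bars) that had a replicate 1-only, a replicate 2-only or a shared summit within 500 bp of a start; dashed lines mark the shares over all protein-coding genes, 3.05%, 2.61% and 9.1%. The 25 lists with at least 1 one-sided gene are shown, ordered by the shared share; cytosolic ribosomal protein genes stand at 15.2% and 0, and the cytoskeleton list at 7.69% and 38.5%, in the one-sided panels.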

How the data were processed

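Peak lists for 2 biological replicates of Crc-eGFP ChIP-seq in embryos were used, with the pooled and optimal lists. Column 7 holds a signal value and column 9 a −log10 q value, both computed by the authors and deposited per region. The candidate lists hold peaks and background together, 30000 regions per replicate. Aligner, peak caller and depth are not stated, and the control was not analysed here. Regions were sorted by signal, the 2420 highest of each replicate taken, and summits matched within 250 bp; windows were 201 bases. Alternatives were lists of 1210 (shorter) and 4840 (longer), ranks 1211 to 2420 only (the weaker part of the list), other summit and promoter distances, other GC limits, windows of 401 bases, and the optimal list as comparison. GC was read from the RefSeq copy of Release 6 and genes from Ensembl release 115. Shares were compared with two-sided Fisher's exact tests, Benjamini-Hochberg adjusted within location, GC, element and arm families (Python 3.11.15, SciPy 1.17.1, pandas 2.3.3). In 200 simulations with these set sizes, 7 independent features were tested over 3 comparisons, which differs from the families used here. For 1 feature in 1 comparison, shares of 18% against 10% were called in 98.5% and of 3% against 2% in 6.5%. With 10% in both, 0% were called for that feature, which is not the error rate of a whole family. The members and the 30 gene lists were chosen with earlier results of these data known, and some list symbols were corrected after the files were seen. The text names the 15 strongest members of each set, and the members of the lists, of which a few are not reported here.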

Additional observations from a re-analysis of the deposited data

How the results depend on the processing

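All differences here are in percentage points, replicate-only minus shared or replicate 1-only minus replicate 2-only, with exact p-values adjusted as in the report. The replicate 1-only and replicate 2-only sets held 275 and 274 regions with shorter lists, 1826 and 1809 with longer lists, and 60 and 94 when the region had to be absent from the other replicate's whole list. The promoter difference of replicate 1 was -1.32 with summits shared within 100 bp, 0.492 with shorter lists (opposite in sign, adjusted exact p = 1), -6.53 in the weaker part of the list, -15.2 for absent regions, -3.40 against the optimal list, and -2.29 and -5.26 with promoters of 200 and 1000 bp, none of which passed. That of replicate 2 was -5.55 within 100 bp and -8.69 for absent regions and did not pass in these 2 of 10 alternatives. Between the one-sided sets it was 12.9 with shorter lists and 6.27 with promoters of 200 bp, both passing, and -9.82 with longer lists (adjusted exact p = 4.68e-09, opposite in sign). The GC difference of replicate 1 kept its call in 13 of 14 alternatives and was 2.80 with 200 bases to each side. That of replicate 2 passed at 4.86 with longer lists and 5.74 within promoters. Between the one-sided sets it was 3.61 with 200 bases to each side, without passing, and -0.101 within promoters, opposite in sign. Longer lists gave 4, 1 and 1 passing elements in the 3 comparisons, and 200 bp windows 1 in each replicate against its shared regions. No arm (0) passed for replicate 1 with summits shared within 500 bp, shorter lists, the weaker part, absent regions or the optimal list, and 1 passed between the one-sided sets with longer lists. The causes were not tested. GC splits by location were added after the data were seen. Leaving out a replicate gives no value because the sets are defined by both. No paired analysis was possible because there is 1 group. Unknown depth limits the reading of regions absent from a list.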
